A study of Mus musculus with 28 samples.

Results

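The suppressor of cytokine signalling (SOCS) family was examined as 8 genes named by symbol, Socs1 to Socs7 and Cish, out of 55487 gene IDs measured in each library. They were read in 28 RNA sequencing libraries of mouse macrophages that had been grown in culture from bone marrow cells (BMDMs). All libraries were labelled wild-type, and they fell into 7 groups of 4. The M0 group had 48 h of culture without a polarizing cytokine, and the other 6 groups had 48 h with 50 ng/mL of IFN-γ or with 50 ng/mL of IL-10. Within each cytokine, 1 group had engulfed dying regulatory T cells (Treg-phagocytic), 1 had engulfed dying conventional CD4 T cells (Tconv-phagocytic) and 1 had engulfed no T cell (non-phagocytic). The T cells had been killed with ATP/NAD+ and stained with a fluorescent antibody to CD4, by which the macrophages were sorted. The M0 titles name neither T cells nor an uptake status, although the design text places co-cultures in that condition too, so that in any comparison with M0 the cytokine, the co-culture and the sort cannot be told apart. The titles and the library names give different dyes for all 8 Treg-phagocytic libraries and for 0 of the Tconv-phagocytic ones. Phagocytic libraries carry the dye and the number that their titles give, in the order BV421-1, BV421-2, Ax647-1, Ax647-2 for Tconv and Ax647-1, Ax647-2, BV421-1, BV421-2 for Treg. No label says that replicates came from separate animals or cultures, so p-values measure the spread between these libraries, which may be technical.

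SOCS proteins are inhibitors that cytokines induce against their own signal. A cytokine receptor activates JAK kinases, these phosphorylate STAT transcription factors, and STATs switch on SOCS genes, whose products bind the receptor or the kinase through an SH2 domain and recruit a ubiquitin ligase through the C-terminal SOCS box. SOCS1 restrains IFN-γ receptor signalling, SOCS3 acts on receptors that contain gp130 and is induced by IL-10 through STAT3 without blocking the IL-10 receptor, CIS and SOCS2 are induced through STAT5 downstream of receptors such as those for IL-2 and growth hormone, and SOCS4 to SOCS7 are less tied to cytokine induction.

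Levels are given in TPM, a share of the library's transcripts that divides by transcript length and so allows levels of different genes to be set side by side. Differences are between group means of log2(scaled TPM + 1), a scale that understates the change of genes near or below 1 TPM, and each was tested with limma over 13631 genes (at least 1 TPM in at least 4 libraries) with Benjamini-Hochberg adjustment and a threshold of 0.05. All 8 genes passed that filter. Socs1 reached 1 TPM in 21 libraries and Socs2 in 22, and every other member in all 28. All 4 IL-10 Treg-phagocytic libraries reached it for Socs1 (lowest 1.21) and Socs2 (lowest 1.96). Neither gene therefore needed the IFN-γ groups, where its levels were highest, to pass. In IFN-γ non-phagocytic libraries against M0 the scaling factors differed by -0.27 (log2), and the median difference of all genes was -0.24 without scaling and -0.02 with it.

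The IFN-γ libraries were the shallowest, at 11% to 23.7% of the depth of the deepest library, against 68.6% to 100% for M0 and 48.7% to 91% for IL-10. Summed over 10 macrophage markers, all libraries held 20950 to 26840 TPM. The 18 T cell markers, which include Cd3e, Lck and Zap70, were present in every group: their summed level had a median of 83.8 TPM in M0 (61.0 to 163.5), 595.5 in IFN-γ non-phagocytic (510 to 869.7), 737.6 in IFN-γ Tconv-phagocytic, 725.4 in IFN-γ Treg-phagocytic, 98.8 in IL-10 non-phagocytic (89.4 to 104.9), 149.7 in IL-10 Tconv-phagocytic (125.4 to 175.8) and 220.3 TPM in IL-10 Treg-phagocytic libraries (194.6 to 229.5). None of these markers was at 0 in all 4 libraries of a group. The summed level of 5 stromal markers had a median of 106.3 TPM in M0, 69.0 in IL-10 non-phagocytic and 3.53 in IFN-γ non-phagocytic libraries. It was 4.03 TPM in IFN-γ Tconv-phagocytic and 2.05 in IFN-γ Treg-phagocytic libraries. The part of these differences in the SOCS results was not tested. Bulk RNA does not tell fewer cells of a type from less RNA per cell.

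Socs3, the feedback inhibitor of gp130 receptors, carried the widest range of the family. It was the highest SOCS transcript of all IL-10 groups, whereas Socs6 was the highest in M0 and in IFN-γ. Socs1, Socs2 and Cish were highest in IFN-γ libraries, Socs5 and Socs6 were lowest there, and Socs4 and Socs7 varied least between groups.

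**Figure D1:**
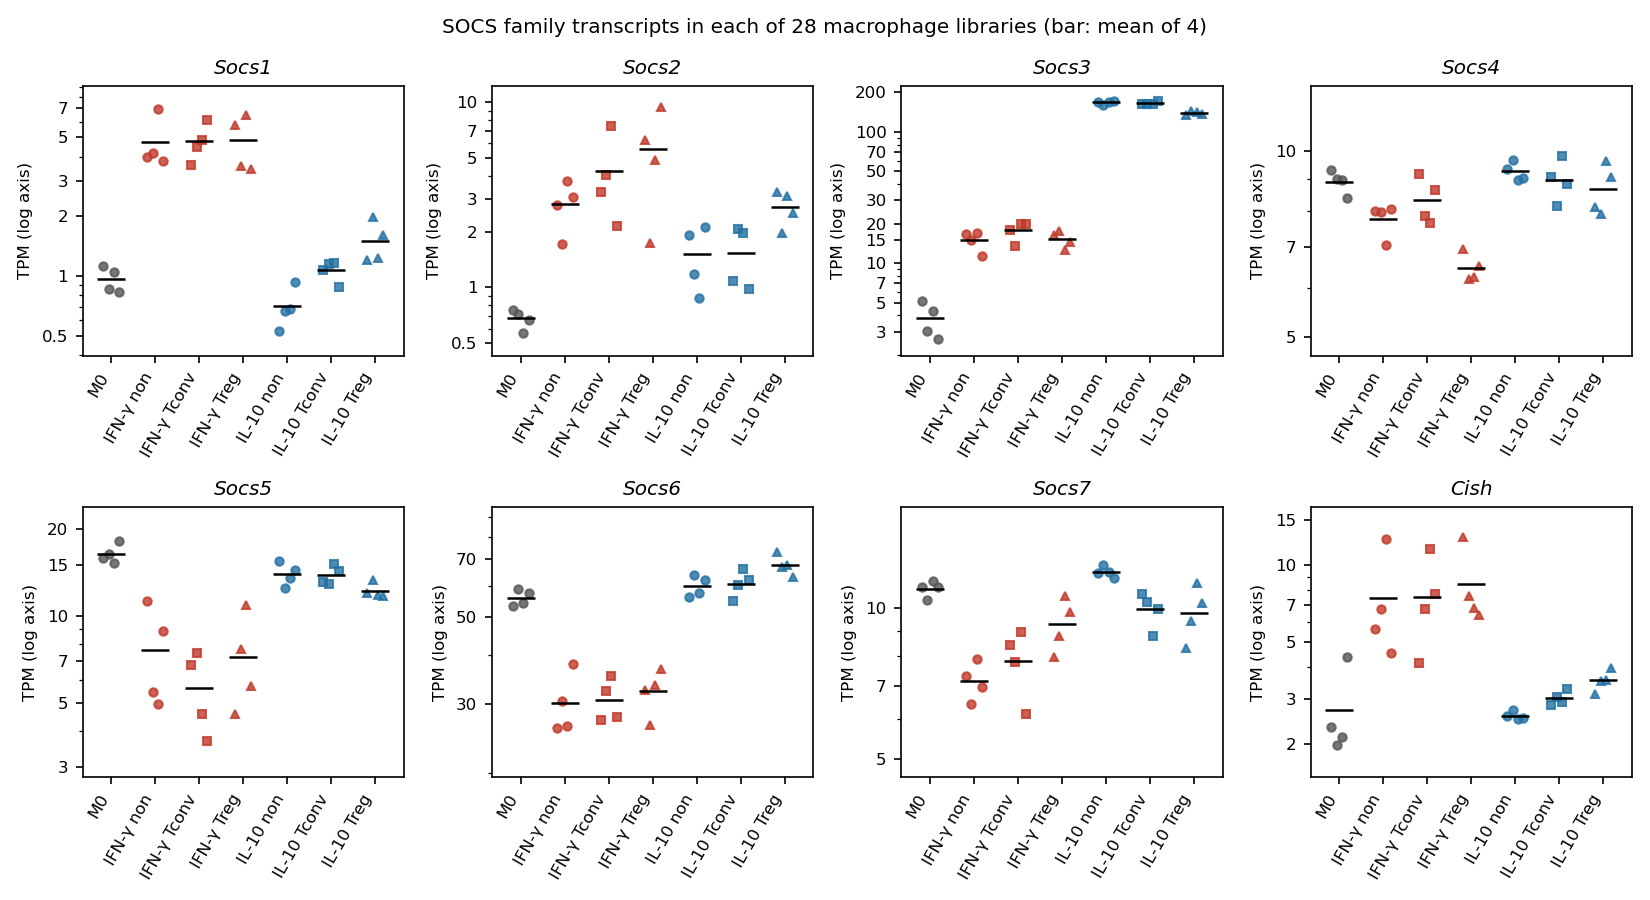
TPM (log axis) of each SOCS family gene in every library, by group (non: non-phagocytic). Points are libraries and bars are means of 4. Socs3 sits between 134.3 and 172 TPM in all 12 IL-10 libraries and at or below 19.9 TPM elsewhere.

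Socs3 (ENSMUSG00000053113, chr11:117966079-117970047, minus strand, GRCm38) stood at 5.16, 3.05, 4.31 and 2.62 TPM in M0 libraries 1 to 4. In IL-10 non-phagocytic libraries it stood at 169.6, 162, 169 and 172 TPM. In IFN-γ non-phagocytic libraries it stood at 16.6, 14.9, 17.0 and 11.3 TPM. Each of these groups was separate from the other 2, with IL-10 highest and M0 lowest. Socs3 rose by 5.13 on the log2 scale with IL-10 against M0 (SE 0.15, adjusted p = 6.68e-08), and the ratio of mean TPM was 44.4 (168 ± 4.58 against 3.79 ± 1.16, SD, n = 4). This was the second largest difference in either direction among the 13631 genes of that comparison. Socs3 also rose with IFN-γ against M0, by 1.99 (SE 0.19, adjusted p = 4.17e-05), a ratio of mean TPM of 3.95. It was lower in IFN-γ than in IL-10 non-phagocytic libraries, by a log2 difference of -3.15 (SE 0.11, adjusted p = 7.26e-08).

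Because Socs3 was the member most raised by IL-10, the 250 bases before its RefSeq start (chr11:117969367-117969616, minus strand, GRCm38.p6) are shown with the only match to a motif in capitals. The motif, TTCNNNGAA on both strands, is the palindrome bound by most STAT dimers. It reads TTCTTAGAA and lies 154 to 146 bases before the start. On the minus strand the RefSeq start lies upstream of the start of the only protein-coding transcript in GENCODE (117969186) and downstream of the outer end of the gene, 117970047, which is the start of a noncoding transcript.
Socs3: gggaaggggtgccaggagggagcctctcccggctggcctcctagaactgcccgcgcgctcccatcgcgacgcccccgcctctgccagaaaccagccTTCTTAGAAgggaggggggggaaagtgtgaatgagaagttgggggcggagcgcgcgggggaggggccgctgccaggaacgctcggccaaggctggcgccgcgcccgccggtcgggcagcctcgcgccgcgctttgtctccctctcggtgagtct
The same motif occurs in the 250 bases before the start of 7.02% of 32851 RefSeq promoters, and the match is a description of the letters only. The same palindrome with 1 more base in its centre, found in 5.85% of promoters, and the core of the interferon-stimulated response element, a GAAA repeat found in 2.98%, had no match in the Socs3 window. The motif search covered the RefSeq promoters of 4 of the 8 genes: Socs1, Socs3, Socs4 and Cish.

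Uptake of Treg cells went with a lower Socs3 level under IL-10. The Treg-phagocytic libraries held 134.3, 144, 142 and 136 TPM. The Tconv-phagocytic libraries held 164, 165, 162 and 171 TPM. All 4 Treg-phagocytic libraries lay below all 4 Tconv-phagocytic and all 4 non-phagocytic libraries. Socs3 fell by 0.25 (log2, SE 0.030, adjusted p = 0.00536) against Tconv-phagocytic libraries, where the ratio of mean TPM was 0.841. It fell by 0.19 (SE 0.032, adjusted p = 0.00671) against non-phagocytic libraries, with a ratio of 0.828. Between Tconv-phagocytic and non-phagocytic libraries the difference was 0.06 (95% interval -0.01 to 0.12, adjusted p = 0.307). These 3 comparisons share groups with one another. Both calls held without any single library and with no scaling. They were lost in 1 model of all 28 libraries, which pools the spread of the IFN-γ groups (adjusted p = 0.705 against non-phagocytic and 1 against Tconv-phagocytic), and with a variance weight per group (0.26 and 0.257). The call against Tconv-phagocytic libraries was lost in 7 of 22 alternatives in all, among them the replicate block by dye and number of the library names (adjusted p = 0.0872) and the 4 fits to libraries of 1 dye (0.282 to 0.554, 2 libraries a group). That against non-phagocytic libraries was lost in 3 of 19, the third being Ax647 by title among the phagocytic libraries (0.066). Beside this fall, the T cell markers were higher in the Treg-phagocytic libraries, and the summed level of 5 stromal markers was 24.0 TPM there against 126.2 in Tconv-phagocytic and 69.0 in non-phagocytic libraries. The part of either in the Socs3 result was not tested.

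Under IFN-γ, Socs3 stood at 17.9, 13.6, 19.9 and 19.9 TPM in Tconv-phagocytic libraries. It stood at 16.3, 17.6, 12.5 and 14.4 TPM in Treg-phagocytic libraries. The 3 IFN-γ groups overlapped, and no Socs3 difference among them passed the test. The Treg- against Tconv-phagocytic difference was -0.15 (95% interval -0.51 to 0.21), an interval that holds the fall seen under IL-10. The difference between cytokines of the Treg- against Tconv-phagocytic contrast was 0.10 (SE 0.15, adjusted p = 0.744), so a Treg effect on Socs3 particular to IL-10 was not shown.

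Socs1 (ENSMUSG00000038037, chr16:10782240-10785536, minus strand), the inhibitor of IFN-γ receptor signalling, was a low transcript that rose with IFN-γ. It stood at 1.12, 0.86, 1.05 and 0.83 TPM in M0. It stood at 3.98, 4.18, 6.98 and 3.82 TPM in IFN-γ non-phagocytic libraries. Every IFN-γ library lay above every M0 and IL-10 library, and library 3 stood above the other 3 of its group. The rise was 1.70 (log2, SE 0.18, adjusted p = 7.90e-05), and mean TPM was 4.91 times as high. Without library 3 the rise was 1.53 (adjusted p = 4.63e-05). In IL-10 non-phagocytic libraries Socs1 stood at 0.53, 0.67, 0.68 and 0.94 TPM, and its difference from M0 was -0.20 (95% interval -0.42 to 0.01, adjusted p = 0.161). At the depth of these libraries the Socs1 values rested on at most about 16.5 to 60.8 reads in IFN-γ, 32 to 35 in M0 and 11.3 to 54.8 in IL-10 libraries. These are upper bounds, computed from the longest annotated transcript.

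The 250 bases before the RefSeq start of Socs1 (chr16:10785537-10785786, minus strand, GRCm38.p6) are shown because Socs1 rose with IFN-γ and its difference with IL-10 did not pass the test. Capitals mark a pair of overlapping matches to the response element core, in which any 2 bases part a GAAA from the next and which interferon regulatory factors bind. They read GAAAGAGAAA, from 83 to 74 bases before the start, and GAAACCGAAA, from 77 to 68 bases before it. Neither form of the STAT palindrome matched in this window.
Socs1: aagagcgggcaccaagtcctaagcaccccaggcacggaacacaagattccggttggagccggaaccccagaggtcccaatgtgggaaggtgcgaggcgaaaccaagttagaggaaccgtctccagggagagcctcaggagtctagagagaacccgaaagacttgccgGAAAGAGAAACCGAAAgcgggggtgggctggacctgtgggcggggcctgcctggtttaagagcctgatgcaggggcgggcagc
In the Cish window of 250 bases, and in that of Socs4, none of the 3 motifs matched. A search of all 300 bases of each RefSeq entry, chosen after the shorter windows had been seen, found TTCNNNGAA in Cish as TTCCTGGAA at bases 1 to 9 from the start and as TTCTTGGAA at bases 12 to 20. At least 1 match in 300 bases was found in 8.3% of promoters and at least 2 in 0.457%.

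With uptake under IL-10, Socs1 stood at 1.08, 1.15, 1.17 and 0.88 TPM in Tconv-phagocytic libraries. It stood at 1.21, 1.99, 1.23 and 1.61 TPM in Treg-phagocytic libraries. All 4 Treg-phagocytic libraries lay above both other IL-10 groups, as their T cell marker sums did. Against non-phagocytic libraries Socs1 rose by 0.57 (SE 0.125, adjusted p = 0.0231), a ratio of mean TPM of 2.14. This call was lost in 9 of 19 alternatives, 4 of them the omission of 1 library (non-phagocytic 1, 2 or 3 or Treg-phagocytic BV421-2, adjusted p = 0.0566 to 0.0631). Against Tconv-phagocytic libraries the difference was 0.26 (95% interval -0.01 to 0.53, adjusted p = 0.37). Under IFN-γ the uptake groups spanned 3.48 to 6.98 TPM, and Treg-phagocytic minus non-phagocytic was 0.03 (95% interval -0.54 to 0.60).

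Cish (ENSMUSG00000032578, chr9:107296026-107302784, plus strand) encodes CIS, the STAT5-induced member. In M0 libraries 1 to 4 it stood at 2.33, 1.97, 2.13 and 4.38 TPM. In IFN-γ non-phagocytic libraries it stood at 5.62, 6.75, 12.7 and 4.53 TPM. The groups were separate by a small gap, with M0 library 4 close to the lowest IFN-γ library and IFN-γ library 3 far above the rest. Cish rose by 1.35 (log2, SE 0.30, adjusted p = 0.00488), or by 1.09 without IFN-γ library 3 (adjusted p = 0.00613), with a ratio of mean TPM of 2.74. In IL-10 non-phagocytic libraries it stood at 2.56, 2.71, 2.50 and 2.53 TPM, and the difference from M0 was -0.02 (95% interval -0.43 to 0.39).

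Within IL-10, Cish stood at 2.83, 3.04, 2.9 and 3.28 TPM in Tconv-phagocytic and at 3.13, 3.50, 3.56 and 3.97 TPM in Treg-phagocytic libraries. Both groups lay wholly above the non-phagocytic libraries, as their T cell marker sums did. Cish rose by 0.39 in Treg-phagocytic against non-phagocytic libraries (SE 0.082, adjusted p = 0.0183), and without non-phagocytic library 3 the adjusted p was 0.0536. The call was lost in 5 of 19 alternatives, the others being 1 model of all libraries (0.608), variance weights (0.0941), the replicate block by file number (0.0803) and Ax647 only (0.115). The Tconv-phagocytic difference was 0.22 (95% interval 0.06 to 0.38, adjusted p = 0.113). Under IFN-γ, Cish stood at 4.12, 6.70, 11.6 and 7.69 TPM in Tconv-phagocytic and at 12.9, 7.54, 6.79 and 6.39 TPM in Treg-phagocytic libraries. These groups and the non-phagocytic group overlapped.

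Socs2 (ENSMUSG00000020027, chr10:95385362-95417180, minus strand), known for its restraint of growth hormone signalling, was the most scattered member. It stood at 0.76, 0.72, 0.57 and 0.67 TPM in M0. It stood at 2.80, 1.72, 3.75 and 3.08 TPM in IFN-γ non-phagocytic libraries. It stood at 1.91, 1.18, 0.88 and 2.11 TPM in IL-10 non-phagocytic libraries. M0 lay below all other libraries, and the 2 cytokine groups overlapped. Socs2 rose with IFN-γ by 1.32 (log2, SE 0.19, adjusted p = 0.000409) and with IL-10 by 0.52 (SE 0.155, adjusted p = 0.0375) against M0. The IL-10 call was lost in 8 of 16 alternatives, 6 of them the omission of 1 library (any M0 library or IL-10 library 1 or 4, adjusted p = 0.0632 to 0.0899). IFN-γ exceeded IL-10 by 0.80 (SE 0.23, adjusted p = 0.0178), a call lost without IL-10 library 2 or 3 (adjusted p = 0.0527 and 0.0540). The Treg-phagocytic libraries ranged from 1.74 to 9.43 TPM under IFN-γ and from 1.96 to 3.29 TPM under IL-10, and no Socs2 difference with uptake passed the test. Under IL-10 the Treg-phagocytic minus non-phagocytic difference was 0.61 (95% interval 0.19 to 1.04, adjusted p = 0.0723).

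Socs1, Cish and Socs2 were, like the T cell markers, highest in the IFN-γ groups. The non-phagocytic IFN-γ library 3, in which Socs1 and Cish were highest of their group, had the highest marker sum of that group, 869.7 TPM, against 510 to 651.1 in the other 3. The Treg-phagocytic IFN-γ library Ax647-1, with the highest Cish value of all libraries, had the highest marker sum of all, 960.9 TPM. Against this order, M0 library 4 had the highest Cish value of M0 and the lowest marker sum, 61.0 TPM. Within the IFN-γ groups Socs2 did not keep the order of the markers: its highest value of all, 9.43 TPM, was in Treg-phagocytic library BV421-2, which had the lowest sum of its group (611), and its lowest non-phagocytic value, 1.72 TPM, was in library 2, with a sum of 651.1. Under IL-10 the median marker sum was 98.8 TPM in non-phagocytic, 149.7 in Tconv-phagocytic and 220.3 in Treg-phagocytic libraries. In the same order, mean levels were 0.705, 1.07 and 1.51 TPM for Socs1 and 2.58, 3.01 and 3.54 TPM for Cish. Those of Socs2 were 1.52, 1.53 and 2.72 TPM. T cells also express Socs1, Cish and Socs2, and the part of T cell RNA in the results for these 3 genes was not tested. For Socs3 the order differed between conditions: in M0 it stood at 5.16, 4.31, 3.05 and 2.62 TPM at marker sums of 163.5, 94.9, 72.7 and 61.0 TPM, and both were higher in IFN-γ than in M0, while its highest values, in IL-10 libraries, came at sums from 89.4 to 229.5 TPM. The part of T cell RNA in the Socs3 results was not tested either.

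**Figure D2:**
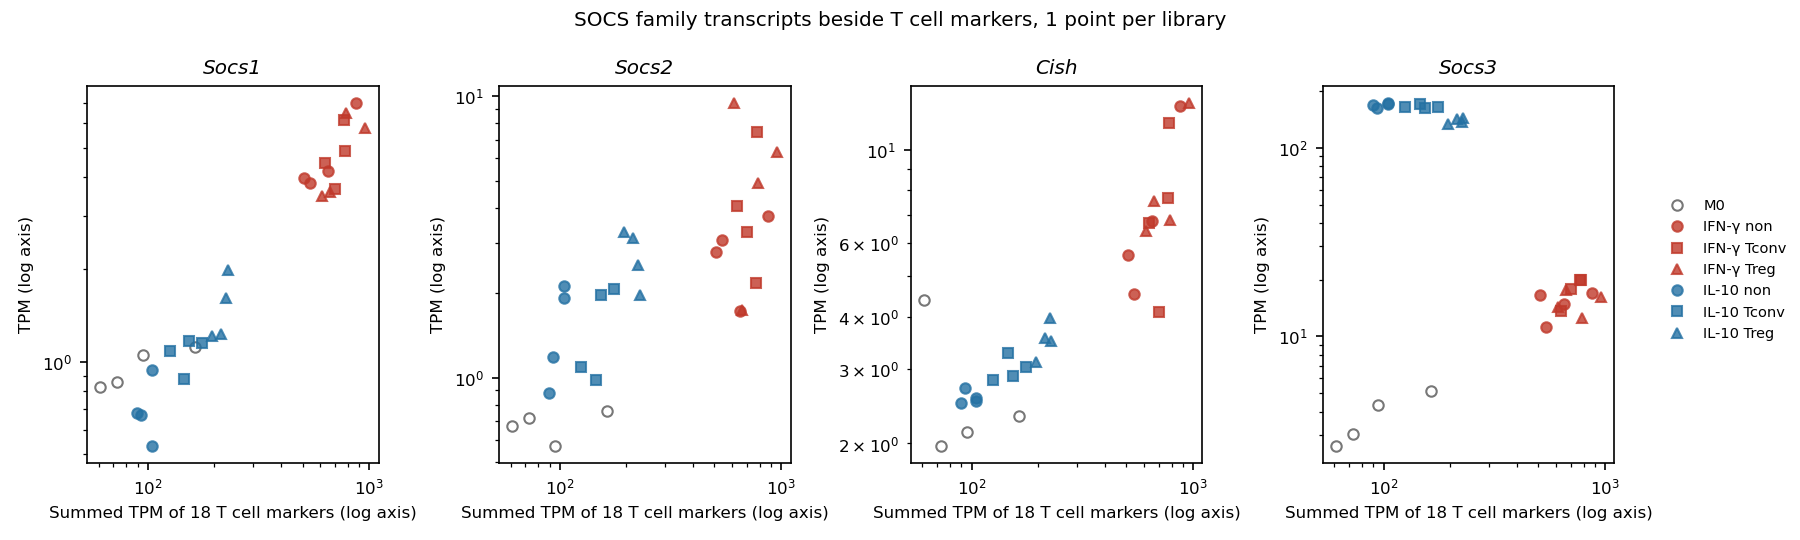
TPM of Socs1, Socs2, Cish and Socs3 (log axis) against the summed TPM of 18 T cell markers (log axis), 1 point per library, coloured by cytokine and shaped by uptake. Libraries with sums of 510 TPM or more, all of them IFN-γ, hold the 12 highest Socs1 values and, apart from M0 library 4 at 4.38 TPM, the highest Cish values, while Socs3 is highest at sums from 89.4 to 229.5 TPM.

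Socs6 (ENSMUSG00000056153), which binds the receptor tyrosine kinase KIT and other tyrosine kinases, was lower with IFN-γ. It stood at 53.2 to 58.9 TPM in M0 (median 55.8) and at 26.1 to 37.9 TPM in IFN-γ non-phagocytic libraries (median 28.5). All 12 IFN-γ libraries lay below all M0 and IL-10 libraries. Socs6 fell by 0.62 on the log2 scale (SE 0.12, adjusted p = 0.00218), and by 0.70 in IFN-γ against IL-10 non-phagocytic libraries (SE 0.12, adjusted p = 0.00109). IL-10 non-phagocytic libraries, at 56.1 to 64.1 TPM, overlapped M0, with a difference of 0.08 (95% interval -0.04 to 0.21). With Treg uptake under IL-10 it stood at 63.2 to 73.0 TPM and rose by 0.25 against non-phagocytic libraries (SE 0.058, adjusted p = 0.0279). That call was lost in 11 of 19 alternatives, among them no scaling and 5 omissions of 1 library (non-phagocytic 1 or 3, Treg-phagocytic Ax647-1, Ax647-2 or BV421-1, adjusted p = 0.0529 to 0.0800).

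Socs5 (ENSMUSG00000037104, chr17:87107679-87137839, plus strand), linked to restraint of EGF receptor and IL-4 receptor signalling, also fell with IFN-γ. It stood at 15.8, 16.4, 15.2 and 18.2 TPM in M0 libraries 1 to 4. In IFN-γ non-phagocytic libraries it ranged from 4.97 to 11.2 TPM, with no overlap with M0. The difference was -0.82 (log2, SE 0.23, adjusted p = 0.0151), and with no filter on low values the adjusted p was 0.0538. IL-10 non-phagocytic libraries held 12.5 to 15.5 TPM, and their difference from M0, -0.23, missed the threshold (95% interval -0.41 to -0.05, adjusted p = 0.0646). It passed without IL-10 library 1 (adjusted p = 0.0437) and, narrowly, with a filter of 5 TPM (0.04998). IFN-γ against IL-10 gave -0.59 in non-phagocytic libraries (adjusted p = 0.0589) and -0.54 in Treg-phagocytic libraries (adjusted p = 0.0948). The first passed without IFN-γ non-phagocytic library 1 (-0.79, adjusted p = 0.00974) and the second without IFN-γ Treg-phagocytic library BV421-1 (-0.73, adjusted p = 0.0138). Both also passed in 1 model of all 28 libraries (adjusted p = 0.0222 and 0.0426). The same held with a variance weight per group (0.0097 and 0.0393) and with no scaling (0.0098 and 0.02455). The first passed as well with a filter of 5 TPM (0.047) and with a replicate block (0.0358). In Tconv-phagocytic libraries Socs5 was lower in IFN-γ, by a difference of -1.07 (SE 0.19, adjusted p = 0.00129).

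Socs7 (ENSMUSG00000038485, chr11:97362551-97398542, plus strand), an adaptor that binds signalling proteins through its SH2 domain, stood at 10.4 to 11.3 TPM in M0 and at 6.43 to 7.92 TPM in IFN-γ non-phagocytic libraries. It fell by 0.30 (log2, SE 0.094, adjusted p = 0.0235), and the call was lost without M0 library 1, 3 or 4 (adjusted p = 0.0560 to 0.0715). Against IL-10 non-phagocytic libraries, at 11.4 to 12.2 TPM, it was lower in IFN-γ, by a difference of -0.39 (SE 0.095, adjusted p = 0.00772). Socs4 (ENSMUSG00000048379, chr14:47276931-47296102, plus strand), linked to restraint of EGF receptor signalling, passed the test in no comparison. Its lowest group was IFN-γ Treg-phagocytic, at 6.22 to 6.95 TPM, and all other libraries stood at 7.04 to 9.81 TPM. Socs4 in TPM was lower in all IFN-γ non-phagocytic libraries (7.04 to 8.05) than in M0 (8.39 to 9.31). After scaling the groups overlapped, and the difference was 0.06 with scaling (95% interval -0.15 to 0.28) and -0.18 without.

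Counted over the family, 7 of 8 genes passed the test in IFN-γ non-phagocytic libraries against M0, 4 higher and 3 lower. In that comparison 53.1% of all tested genes passed, 26.4% higher and 26.7% lower, so a call there was common. The median log2 difference of the 8 genes was 0.69, against -0.02 over all genes. It falls in the gap between Socs4 (0.06) and Socs2 (1.32), so it does not show a rise of the family as a whole. With IL-10 against M0, 2 of 8 passed, both higher, against 26.6% of all genes (13.7% higher and 12.9% lower), with a median of 0.06 against 0.003 over all genes. IFN-γ against IL-10 gave 6 of 8 in non-phagocytic libraries, 3 each way, where 51.4% of all genes passed (25.5% higher, 25.8% lower). It gave 6 of 8 in Tconv-phagocytic libraries, again 3 each way, where 52.5% passed (26.1% higher, 26.4% lower). It gave 4 of 8 in Treg-phagocytic libraries, 2 each way, where 38.8% passed (16.6% higher, 22.2% lower). Socs2 differed there by 0.86 (adjusted p = 0.115), and by 1.24 without IFN-γ Treg-phagocytic library Ax647-2 (adjusted p = 0.00669). It also passed in 1 model of all 28 libraries (adjusted p = 0.0239) and with a variance weight per group (0.048). The family's 2 of 8 with IL-10 was near the background of that comparison. Socs1, Cish, Socs3 and Socs6 were called in all 3 contrasts between the cytokines, with Socs1 and Cish higher and Socs3 and Socs6 lower in IFN-γ.

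**Figure D3:**
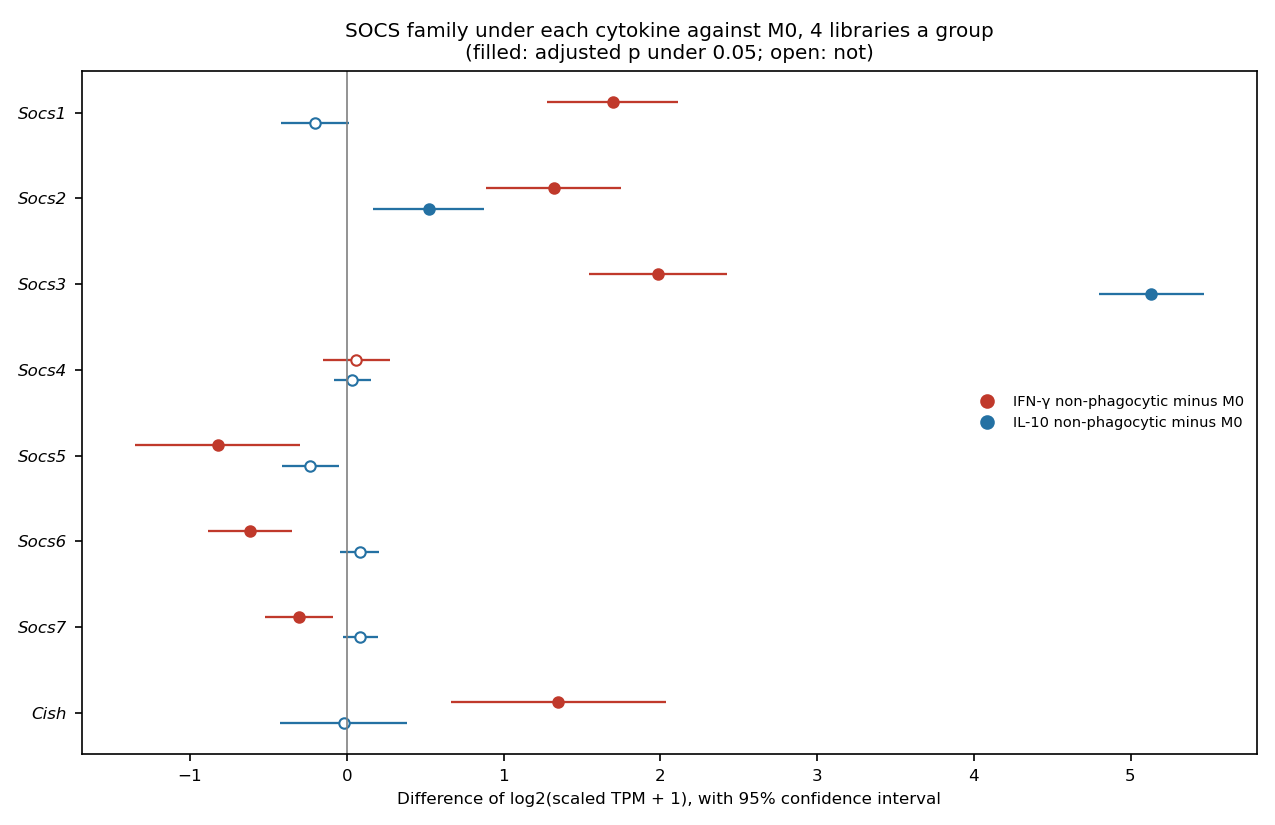
Differences of log2(scaled TPM + 1) from M0 with 95% confidence intervals for non-phagocytic macrophages under IFN-γ and IL-10, 4 libraries a group. Filled points passed an adjusted p of 0.05. Under IL-10 Socs3 lies at 5.13 and the other 7 genes lie between -0.23 and 0.52.

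Uptake was compared within each cytokine. Under IFN-γ, 0 of 8 genes passed in limma for Treg- against Tconv-phagocytic libraries, where 11.5% of all genes did (3.25% higher, 8.3% lower). The same count was 0 for Treg-phagocytic against non-phagocytic libraries (7.73% of all genes, 1.56% higher and 6.17% lower) and 0 for Tconv-phagocytic against non-phagocytic libraries (0.00734% of all genes). At an unadjusted p under 0.05 these counts were 0, 1 and 0, the 1 being Socs7, and in 1 model of all libraries they were 2 (Socs4 and Socs7), 1 (Socs7) and 0. Under IL-10, 4 of 8 passed for Treg-phagocytic against non-phagocytic libraries: Socs1, Cish and Socs6 higher and Socs3 lower, where 11.3% of all genes passed (6.82% higher, 4.51% lower). Against Tconv-phagocytic libraries 1 of 8 passed, Socs3, where 1.38% of all genes did (0.455% higher, 0.924% lower). For Tconv-phagocytic against non-phagocytic libraries 0 of 8 passed (6.08% of all genes, 4.31% higher and 1.78% lower), and 3 had an unadjusted p under 0.05.

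After scaling, groups of 4 libraries did not overlap for 7 of 8 genes in IFN-γ against M0 (50.5% of all genes) and for 3 in IL-10 against M0 (29.1%): Socs2, Socs3 and Socs7. IFN-γ and IL-10 libraries were apart for 5 genes in non-phagocytic (48.7%), 4 in Treg-phagocytic (39.2%) and 6 in Tconv-phagocytic macrophages (49.9%). Under IFN-γ this held for 1 gene in Treg- against Tconv-phagocytic libraries (18.1%), Socs4, for 2 in Treg-phagocytic against non-phagocytic libraries (14.4%), Socs4 and Socs7, and for 0 in Tconv-phagocytic against non-phagocytic libraries (3.54%). Under IL-10 it held for Socs1 and Socs3 in Treg- against Tconv-phagocytic libraries (8.88%), for Socs1, Socs3, Socs6 and Cish in Treg-phagocytic against non-phagocytic libraries (18%), and for Socs7 and Cish in Tconv-phagocytic against non-phagocytic libraries (13.6%).

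**Figure D4:**
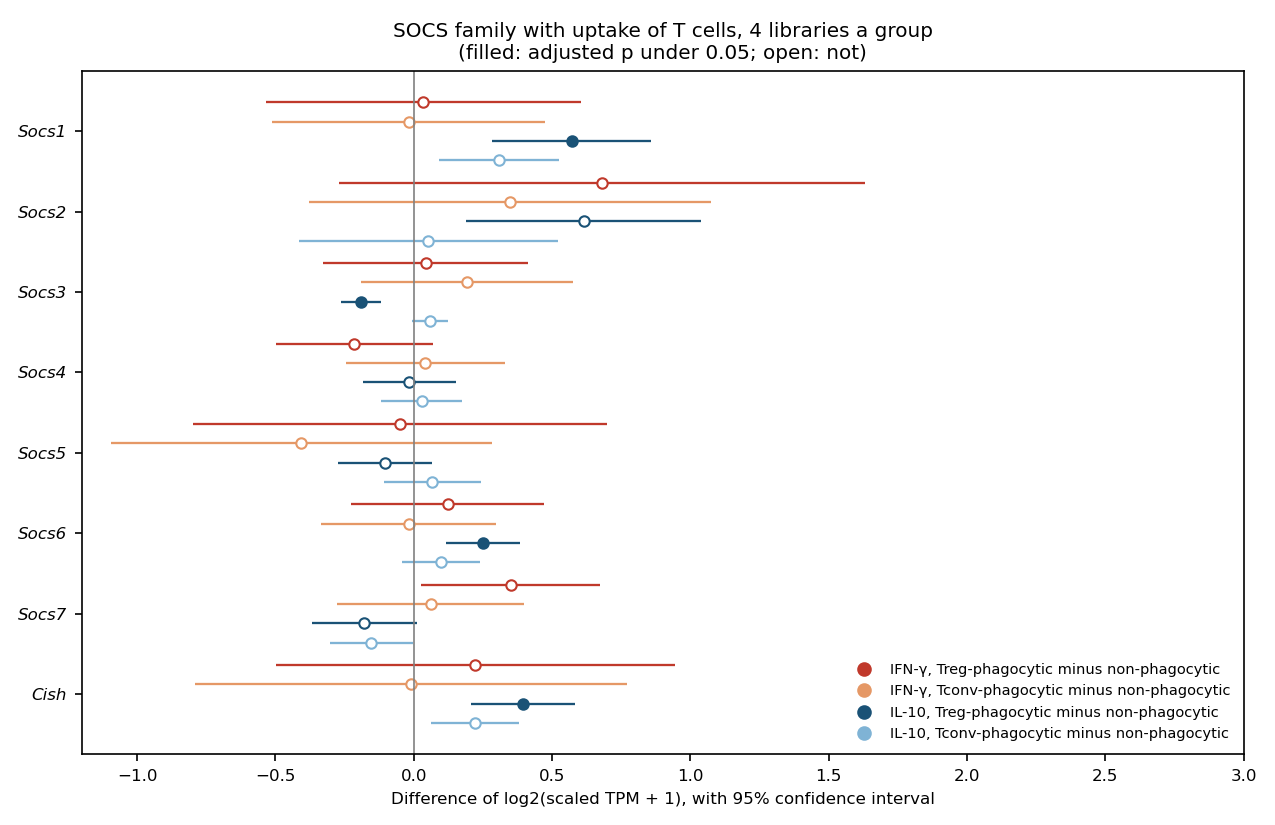
Differences of log2(scaled TPM + 1) of phagocytic from non-phagocytic macrophages with 95% confidence intervals, by cytokine and type of T cell taken up, 4 libraries a group. Intervals are wider under IFN-γ, and the 4 filled points all belong to Treg uptake under IL-10, from -0.19 for Socs3 to 0.57 for Socs1.

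Whether uptake acted differently under the cytokines was tested as a difference of differences. For the Treg-phagocytic against non-phagocytic contrast, 1 of 8 genes passed, Socs7, where 9.53% of all genes did (1.89% higher, 7.64% lower). In TPM, Socs7 stood at 7.97 to 10.6 in IFN-γ Treg-phagocytic libraries, above all IFN-γ non-phagocytic ones, and at 8.32 to 11.2 in IL-10 Treg-phagocytic libraries, below all IL-10 non-phagocytic ones. The Treg-phagocytic minus non-phagocytic difference was 0.35 under IFN-γ and -0.18 under IL-10, neither of which passed alone, and their difference was 0.53 (SE 0.16, adjusted p = 0.0493). It was lost in 16 of 25 alternatives, 13 of them the omission of 1 library from any of the 4 groups (adjusted p = 0.0501 to 0.108). For the Treg- against Tconv-phagocytic contrast 0 of 8 passed in limma (13.1% of all genes, 4.14% higher and 8.93% lower), and for Tconv-phagocytic against non-phagocytic 0 of 8 (1.71%, 0.205% higher and 1.5% lower), with 0 at an unadjusted p under 0.05 in both.

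The other parts of the pathway were counted from gene lists, with the SOCS genes left out, and are to be read against the 53.1% of all genes called with IFN-γ and 26.6% called with IL-10. Stat3, Il4ra, Pim1 and Il2ra are each in more than 1 list, so the counts are not separate from one another. Among 11 JAKs and STATs, 8 rose and 2 fell with IFN-γ against M0 (median 0.81). Stat6, which transmits IL-4, fell from 99.6 ± 3.98 to 47.5 ± 3.28 TPM. With IL-10 against M0, 6 of the 11 rose and 0 fell (median 0.21), led by the kinase gene Jak3, from 11 ± 0.431 to 29.4 ± 0.932 TPM.

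All 12 STAT3 target genes rose with IL-10 (median 0.96), as Socs3 did, and 8 rose with IFN-γ (median 0.50). The list was chosen with earlier results of these data known, so these counts are a description only. Il4ra, the IL-4 receptor chain, rose with IL-10 from 44.9 ± 1.09 to 243 ± 5.4 TPM, a log2 difference of 2.39. Of 12 STAT5 target genes, 6 rose and 2 fell with IFN-γ (median 0.46) and 4 rose and 4 fell with IL-10 (median 0.01). Il2ra, which is also one of the Treg markers, rose with IFN-γ from 0.883 ± 0.617 to 7.76 ± 1.26 TPM, and Myc fell with IL-10 from 11.7 ± 0.675 to 3.49 ± 0.698 TPM. Myc fell with IFN-γ as well, to 5.485 ± 1.117 TPM.

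Among 21 tested receptors that act through JAKs, 6 rose and 6 fell with IFN-γ (median -0.06), and 14 rose and 3 fell with IL-10 (median 0.37). With IFN-γ, 12 of 21 is near the 53.1% of all genes. Il2rb, an IL-2 receptor chain found on T cells, rose with IFN-γ from 2.09 ± 1.58 to 19.7 ± 7.04 TPM, and Csf2ra, a GM-CSF receptor chain, fell from 357 ± 52.9 to 115 ± 12.5 TPM. Of 16 other inhibitors of the pathway, 7 rose and 5 fell with IFN-γ (median 0.13), and 2 rose and 4 fell with IL-10 (median 0.04). Usp18, which limits type I interferon signalling, rose with IFN-γ from 4.01 ± 0.394 to 17.0 ± 3.36 TPM, and the phosphatase gene Ptpn11 fell from 31.6 ± 0.806 to 13.4 ± 1.98 TPM. With IL-10 the phosphatase gene Ptpn1 rose from 77.3 ± 8.97 to 121.9 ± 11.8 TPM.

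Of 11 listed ubiquitin ligase partners of the SOCS box, 10 rose and 0 fell with IFN-γ (median 0.41). The 1 not called was the cullin gene Cul5, so a rise of the whole ligase was not shown. Before scaling, Cul2, one of the 10, stood at 23.4 ± 1.22 TPM in M0 and 23.96 ± 2.38 TPM in IFN-γ non-phagocytic libraries. The scaling factors differed by -0.27 (log2) in this comparison, and no list was counted without scaling. Eloc, the elongin C gene, rose from 76.7 ± 4.03 to 152 ± 15.3 TPM (log2 1.25, SE 0.073, adjusted p = 2.00e-06). With IL-10, 1 rose (Arih2) and 1 fell (Cul2). Of 18 tested genes for other SOCS-box proteins, 3 rose and 6 fell with IFN-γ (median -0.12), and 2 rose and 4 fell with IL-10 (median 0.03), both near the shares of all genes (53.1% and 26.6%). Vhl, the von Hippel-Lindau gene, rose with IFN-γ by 0.39 after scaling. Its TPM before scaling was 18.86 ± 1.35 in M0 and 20.78 ± 2.65 in IFN-γ non-phagocytic libraries. Asb8 fell from 25.7 ± 1.22 to 13.0 ± 3.20 TPM.

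With Treg uptake under IL-10, STAT3 targets moved in the direction of Socs3: against non-phagocytic libraries 0 rose and 7 of 12 fell, where 4.51% of all genes fell (median -0.16, against -0.001 over all genes). In these libraries the median T cell marker sum was 220.3 TPM against 98.8, and the stromal sum 24.0 against 69.0, and their part in this count was not tested. Among these 7, Stat3 fell from 112 ± 6.44 to 87.8 ± 4.13 TPM (log2 -0.27, adjusted p = 0.0112), and Bcl3, a nuclear cofactor of NF-κB, fell from 81.2 ± 4.07 to 57.7 ± 3.92 TPM. Against Tconv-phagocytic libraries 1 of the 12 fell, Il4ra, from 218 ± 8.37 to 186 ± 4.26 TPM.

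With Treg uptake under IFN-γ, 7 of 12 STAT3 targets fell against Tconv-phagocytic libraries, where 8.3% of all genes fell, and 0 rose. Against non-phagocytic libraries 6 of the 12 fell, where 6.17% of all genes did, and 1, Junb, rose. Stat3, which is counted among the fallen targets in both, stood at 39.2 ± 3.24 TPM in Treg-phagocytic, 79.2 ± 8.61 in Tconv-phagocytic and 79.95 ± 9.998 TPM in non-phagocytic libraries. Stat2, a transcription factor of type I interferon signalling, stood at 23.0 ± 3.48, 76.8 ± 11.7 and 69.1 ± 8.41 TPM in the same order. No Socs1 or Socs3 difference passed the test in the same libraries: the Treg- against Tconv-phagocytic differences were 0.05 for Socs1 (95% interval -0.47 to 0.57) and -0.15 for Socs3.

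The genes whose pattern was most like each member were taken by Pearson r of log2(scaled TPM + 1) over the 28 libraries, which share the cytokine conditions, and no r within a condition was computed. For Socs3 they were Saa3 (r = 0.993), an acute phase protein gene, Zc3h12d (0.983) and C1qa (0.983), a complement gene. For Socs1 they were Nr4a1 (0.983), an immediate early gene of antigen receptor signalling among other signals, Slfn1 (0.978) and Il27ra (0.974). By Spearman rho the leading genes for Socs1 included the T cell genes Zap70 and Cd3g, and those for Socs2 included Lck. The leading genes for Cish by rho were Apol7e, Prkch and Ctsw. By Pearson r those for Cish were Tbxa2r (0.943), Shisa5 (0.926) and Apol7e (0.924), and for Socs2 Srp14 (0.869), Psmd14 (0.869) and the T cell kinase gene Txk (0.855). Socs6 was followed by Zdhhc14 (0.958), Osbpl11 (0.95) and Eloa (0.946), and Socs5 by Pmm2 (0.898), Zfp768 (0.889) and Zfp647 (0.878). The likeness was weaker for Socs7, led by Scmh1 (0.772), and for Socs4, led by Wsb1 (0.753), itself a SOCS-box gene.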

How the data were processed

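Libraries were made with a strand-specific NEBNext Ultra II Directional kit, per the labels' protocols. STAR, RSEM and mm10 are named, per the submitters' processing notes. Their versions and the annotation are not given in the sources used here. The deposited values are TPM per Ensembl gene ID, per the file headers. Of 55487 IDs, 55141 were matched to a symbol. No pair of libraries had identical values.

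TPM was divided by a trimmed-mean scaling factor (30% of log ratios and 5% of mean levels trimmed at each end). limma 3.58.1 (R 4.3.3; functions lmFit and eBayes, trend option on) was run on log2(scaled TPM + 1), with only the groups compared in each fit. The script was tested on simulated data. Differences of differences used 4 groups. Each of the 11 group comparisons and each of the 3 differences of differences was adjusted by itself over 13631 genes.

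The files hold no read counts. Relative depth was read from genes with 1 transcript of 500 to 2000 nt, where TPM times length falls on multiples of 1 read: 87.6% to 92.0% of values up to 4 reads were whole to within 0.15 reads. Reads per gene, computed from the longest annotated transcript, are therefore approximate upper bounds, and no total is known.

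The members and lists were chosen with earlier results of these data known. Of each list, the called gene with the largest rise and that with the largest fall were named for a comparison, where groups did not overlap and the higher mean was at least 5 TPM. Not all comparisons are given gene by gene, and some results of the pathway lists are not reported here. The groups with M0 or with non-phagocytic libraries in common share those libraries. Positions are those of GENCODE vM21 (GRCm38). Promoter sequences are from RefSeq (GRCm38.p6). Alternatives were other scaling, pseudocounts (0.1 and 5), filters, variance models, replicate blocks, single dyes and leaving out each library.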

Additional observations from a re-analysis of the deposited data

Results flagged for a closer look

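On the log2(scaled TPM + 1) scale, 3 of 56 sets of 4 libraries (8 genes in 7 groups) held a library whose gap to the nearest other, divided by the range of its group, passed Dixon's critical value for 4 samples. Chance flags about 1 in 20 such groups. IFN-γ non-phagocytic library 3 was one for Socs1, with a gap over range of 0.861 on that scale and a level of 6.98 TPM, above the other 3 libraries. It was one for Socs4, with 0.904 on that scale and a level of 7.04 TPM, below the other 3. IL-10 non-phagocytic library 2 was one for Cish, with 0.844 on that scale and a level of 2.71 TPM, above the other 3. On TPM as deposited, a scale added after seeing the data, the first 2 also passed (0.886 and 0.931), the Cish value did not (0.714), and M0 library 4 did for Cish (4.38 TPM, 0.851). Without IFN-γ library 3 the difference from M0 was 1.53 (log2) for Socs1 and 0.11 for Socs4, against 1.70 and 0.06 with it.

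The Socs7 difference between Treg-phagocytic and non-phagocytic libraries differed between IFN-γ and IL-10 by 0.53 (log2), by a test of that difference (limma, adjusted p = 0.0493).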

How the results depend on the processing

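Of 31 called differences of single genes, 17 kept their call under every alternative run and 0 changed sign. Of 81 uncalled ones, 9 were called under some alternative and 38 changed sign under some. The count of family members called moved by over 1.5 times as follows, and the cause was not tested. In 1 model of all 28 libraries it was 1 for IL-10 against M0, 2 for IFN-γ Treg- against Tconv-phagocytic, 1 for IFN-γ Treg-phagocytic against non-phagocytic, 0 for IL-10 Treg- against Tconv-phagocytic and 0 for IL-10 Treg-phagocytic against non-phagocytic. With a variance weight per group it was 0 for IL-10 Treg- against Tconv-phagocytic and 0 for the Treg against non-phagocytic difference between cytokines, which also gave 0 with a pseudocount of 0.1. With no filter on low values it was 1 for IL-10 against M0 and 2 for IL-10 Treg-phagocytic against non-phagocytic. With libraries of 1 dye, by title or library name, it was 2 for IFN-γ against IL-10 Treg-phagocytic and 0 for IL-10 Treg- against Tconv-phagocytic. For IL-10 Treg-phagocytic against non-phagocytic it was 2 with BV421 by title and 0 with Ax647.

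Leaving out 1 library gave counts of 1 to 2 for IL-10 against M0, 1 to 4 for IL-10 Treg-phagocytic against non-phagocytic and 0 to 1 for the Treg against non-phagocytic difference between cytokines.

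Deviations of same-numbered libraries had correlations from -0.067 to 0.085, and those of other pairs from -0.070 to 0.074. In no comparison did every library correlate best with its own number. For IFN-γ and for IL-10 non-phagocytic libraries against M0, 3 of 4 did. The same held for IFN-γ Tconv-phagocytic against non-phagocytic, and for IFN-γ Treg- against Tconv-phagocytic by title. Elsewhere 0 to 2 did. Whether same-numbered libraries share an origin was not settled by these values. With a replicate block, the count was 0 for IL-10 Treg- against Tconv-phagocytic (dye and number of library names), 1 for IL-10 Treg-phagocytic against non-phagocytic (number in the file) and 0 for the Treg against non-phagocytic difference between cytokines. Depth limits Socs1 and Socs2 most: some values rested on at most about 11.3 to 16.5 reads (Socs1) or 12 reads (Socs2).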
